A study of Mus musculus with 10 samples.

Results

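The Hedgehog ligands Shh and Ihh, their receptor Ptch1, the signal transducer Smo, the transcription factors Gli1, Gli2 and Gli3 and the ligand-binding inhibitor Hhip were followed in laser-dissected mouse colon tumours. On the Affymetrix mouse genome array used here, with 45101 probe sets, 18193 genes have a probe set annotated to them alone. The 8 genes were chosen for their place in the pathway, with earlier results of these data known, so their counts are no independent evidence; they have 19 such probe sets, and every one of the 19 is reported. The tumours came from KO mice, labelled vil-Cre-Bcl9-/-/Bcl9l-/-, and from wild-type (WT) mice, all of the mixed background 129SvEv/C57BL/6/DBA/2. All mice were 6 to 8 weeks old at the start and received dimethylhydrazine, a carcinogen precursor, at 44 mg/kg; the mucosal irritant dextran sulfate sodium followed at 2% for 7 days. The vil-Cre transgene is driven by villin regulatory sequence, which is active in intestinal epithelium, so cells of the stroma are not its target. There were 5 KO tumours, numbered 2, 6, 7, 9 and 11, from 3 mice (tumours 2 and 6 from mouse 02, 9 and 11 from mouse 04, and 7 from mouse 99). There were 5 WT tumours, numbered 1, 3, 8, 12 and 13, of which 4 came from mouse 72 and tumour 8 from mouse 82. Tumours of one mouse are not independent, and precision is limited by how few mice and arrays there are.

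Hedgehog ligands bind Ptch1, which in their absence holds Smo inactive; active Smo turns Gli2 and Gli3 from repressing to activating forms, and Gli1 is made in response. Ptch1, Gli1 and Hhip are themselves transcribed when the pathway is active, so their level is a common readout of it. In the adult colon the ligands are made by the epithelium and act mainly on the mesenchyme beneath it, with Ihh made by differentiated surface cells and Shh near the crypt base. Bcl9 and Bcl9l are co-factors of beta-catenin in Wnt-driven transcription, and the study set KO against WT tumours to see what their loss in the epithelium changes.

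The values are log2 RMA signals per probe set, whose medians ranged from 6.43 to 6.50 over the 10 arrays. A level filter, used only as an alternative, was set at the 40th percentile of mean signal (5.82 log2), and 11 of the 19 probe sets, from 6 of the 8 genes, passed it. Among the 8 below it were both Shh probe sets and the Gli1 probe set. The nearest to the filter were Gli2 1446086_s_at with a mean of 5.88 inside it and Gli3 1455154_at with 5.78 outside it. Without detection calls, no gene is called present or absent. All 10 colon epithelium markers, such as Epcam and Krt8, passed the filter, and 6 of 8 enteric neuron and glia markers lay below it. WT tumour 1 had the lowest mean correlation with the other arrays (0.964, against 0.970 to 0.976 elsewhere), WT tumour 3 had the lowest mean over fibroblast markers (8.36, against 9.18 to 9.53 in the other WT tumours) and KO tumour 2 the highest (9.55). The probe sets of the targeted genes Bcl9 and Bcl9l had differences (KO minus WT) of -0.14 to 0.32 log2; none of the 5 passed the limma test and 1 had an unadjusted p under 0.05. Where they lie relative to the deleted parts is not given in the sources used here, so they check nothing about the labels.

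Shh was lower in KO tumours on one of its probe sets, and no difference past the test was found on the other. Among these 19, 1 fell in KO tumours and 0 rose past an adjusted p of 0.05 (limma with the mouse as a random block, adjusted over all 45037 non-control probe sets). Over all probe sets 2.05% were lower and 2.31% higher by the same test, so a single call among 19 is near the background share. At an unadjusted p under 0.05 there were 2 of the 19, where the share over all probe sets was 18.2%. The differences (KO minus WT) of the 19 ranged from -2.20 to 0.69 log2 with a median of -0.057, and the median over all probe sets was -0.0055. The plot of all 19 differences shows 12 below 0 and 7 above.

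**Figure D1:**
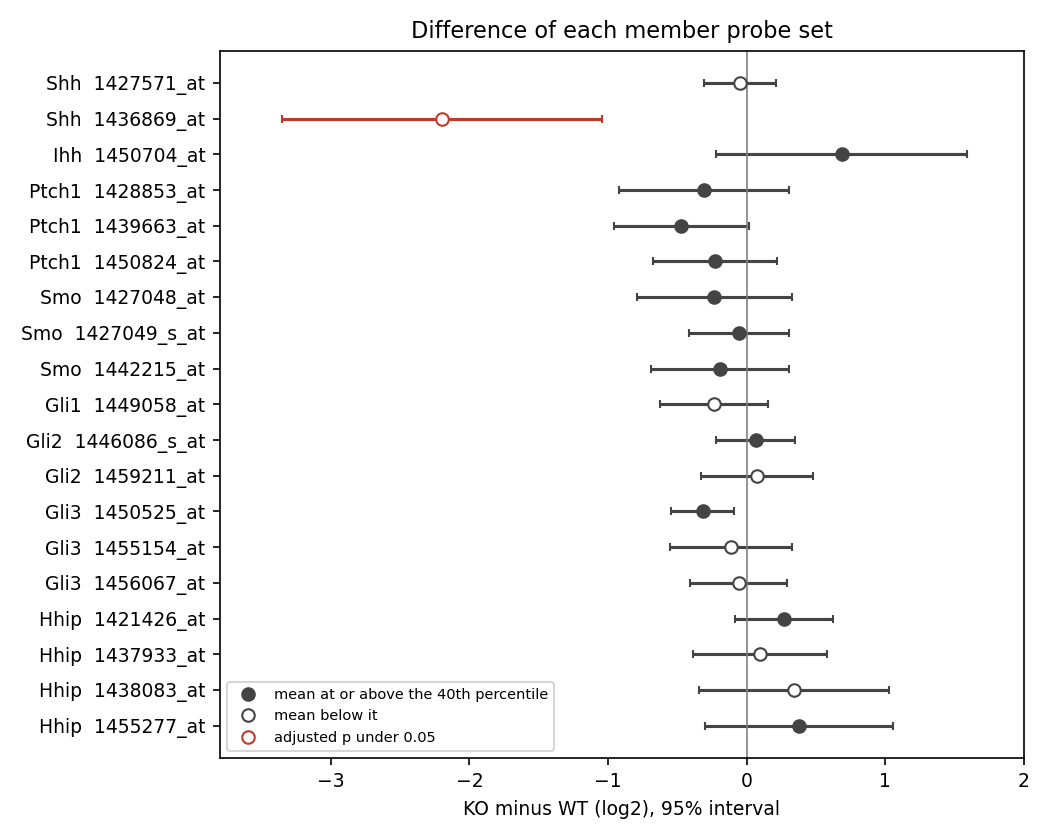
Difference between KO and WT tumours (log2, limma estimate with its 95% interval) for each of the 19 probe sets, ordered by gene. Filled points pass the level filter, open points lie below it, and red marks an adjusted p under 0.05. Shh 1436869_at, at -2.20, is the one red point, and the intervals of 17 probe sets include 0.

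Shh encodes Sonic hedgehog, the ligand made near the crypt base. On probe set 1436869_at its signal was 3.15, 4.18, 3.40, 2.60 and 3.57 log2 in KO tumours 2, 6, 7, 9 and 11, against 4.27, 4.34, 6.36, 6.42 and 6.38 in WT tumours 1, 3, 8, 12 and 13. Every KO tumour lay below every WT tumour, a separation seen in this direction in 3.39% of all probe sets. The WT tumours themselves fell apart, with tumours 8, 12 and 13 near 6.4 and tumours 1 and 3 only a little above the highest KO tumour, by 0.082 log2 at the closest. Mouse 72 gave tumours on both sides of that gap. The mean was 3.38 ± 0.58 over the KO tumours and 5.55 ± 1.14 over the WT tumours (SD, n = 5 in each group). The fitted difference was -2.20 ± 0.53 log2 (SE; 95% interval -3.35 to -1.04; adjusted p = 0.0414), a 4.59-fold lower level. These are low signals: between 3.14% and 18.4% of probe sets lay below Shh on the KO arrays, and 19.1% to 49.4% on the WT arrays, so the fold is not exact.

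The call for Shh was close to its threshold. It held with 1 mean per mouse (-2.47, adjusted p = 0.0310), where the means were 3.67, 3.09 and 3.40 in KO mice 02, 04 and 99, against 5.35 and 6.36 in WT mice 72 and 82. It was lost with the range of the labels' unique numbers as a covariate (-1.70, adjusted p = 0.175); the numbers 191 to 229 hold KO tumour 7 and 4 WT tumours, and 254 to 258 hold 4 KO tumours and WT tumour 1. Within the lower range the difference was -2.45 (adjusted p = 0.423) and within the upper range -0.89 (adjusted p = 0.519), with 1 tumour left in one group each time and assumed to vary like the others. Of the 10 fits that each left out 1 tumour, 3 kept the call (without KO tumour 6 or WT tumour 1 or 3), and the difference stayed between -2.51 and -1.97. Without KO tumour 2, 7, 9 or 11 or WT tumour 8, 12 or 13 the adjusted p was 0.0710 to 0.102. It was 0.0979 without mouse 02, 0.181 without mouse 04, and 0.0976 and 0.0992 with the 3′ to 5′ control difference or the fibroblast marker mean as a covariate. The other probe set of Shh, 1427571_at, averaged 5.53 ± 0.14 over the KO and 5.58 ± 0.18 over the WT tumours, with a difference of -0.045 ± 0.12 (SE; 95% interval -0.30 to 0.21). The probe sets of Shh therefore disagree, and which of them follows the transcript was not tested. In bulk tissue, fewer cells of a type and less RNA per cell cannot be told apart.

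Ihh encodes Indian hedgehog, the ligand of differentiated colonocytes, and has 1 probe set, 1450704_at. Its signal was 7.84, 7.30, 6.86, 8.94 and 8.83 log2 in KO tumours 2, 6, 7, 9 and 11, against 7.07, 7.73, 7.70, 7.00 and 6.69 in WT tumours 1, 3, 8, 12 and 13. The tumours of KO mouse 04, numbers 9 and 11, were the highest, and the other KO tumours lay within or near the range of WT tumours. The means were 7.95 ± 0.92 in KO and 7.24 ± 0.46 in WT tumours, and the difference of 0.69 ± 0.41 did not pass (SE; 95% interval -0.22 to 1.59; adjusted p = 0.426). Over mouse means it was 0.36 (adjusted p = 0.836). Without mouse 04 it was 0.070 (adjusted p = 0.945).

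The balance of the ligands on each array was read as Shh 1436869_at, the called probe set, minus Ihh. This quantity was chosen after the values were seen and is given without a test. It was -4.69, -3.11, -3.46, -6.34 and -5.25 log2 in KO tumours 2, 6, 7, 9 and 11, against -2.80, -3.39, -1.34, -0.58 and -0.32 in WT tumours 1, 3, 8, 12 and 13. KO tumour 6 and WT tumour 3 overlapped, and the most negative values were those of KO mouse 04, where Shh was low in tumour 9 and Ihh high in tumours 9 and 11. Such a difference of 2 probe sets has no absolute meaning and can be compared only between arrays. It also rests on the choice between Shh probe sets that disagree. On the other, 1427571_at, the groups overlapped, at 5.30 to 5.63 log2 in KO and 5.40 to 5.86 in WT tumours. The difference between the groups given here is therefore that of the called probe set only.

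**Figure D2:**
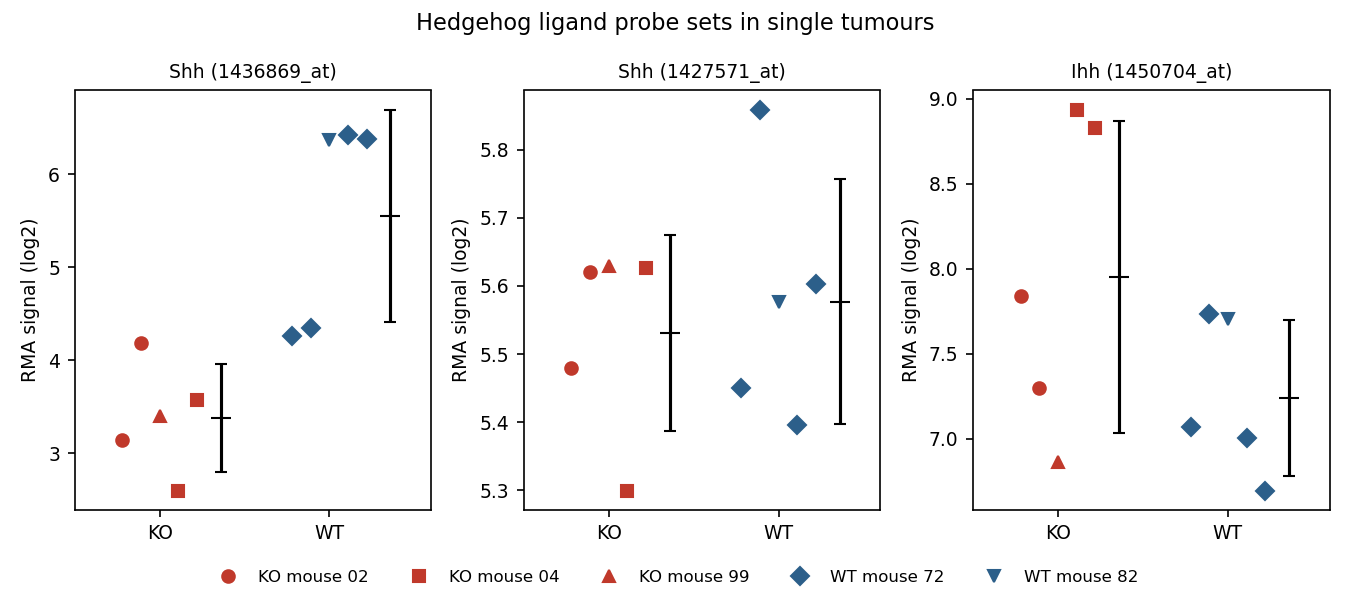
Log2 RMA signal of the ligand probe sets in each tumour, with KO left of WT, marker shapes for the mouse, and the group mean ± SD beside the points. Axes differ between panels and do not start at 0. On Shh 1436869_at the highest KO tumour (4.18) lies below the lowest WT tumour (4.27), whereas on Shh 1427571_at and on Ihh the groups overlap.

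Markers of other cells were read in the same tumours. Differentiated absorptive colonocyte markers, cells that make Ihh, had list means of 7.17 to 7.69 in KO and 6.41 to 9.09 in WT tumours, with 1 of 10 higher (Guca2b, a gut peptide gene) and 0 lower past the test. At an unadjusted p under 0.05 there were 3; the other two had differences below 0, -3.25 for Car1, a carbonic anhydrase gene, and -1.39 for Slc26a3, a chloride exchanger gene (adjusted p = 0.0919 and 0.252, limma), both named after their values were seen. The list had 6 of 10 differences below 0 and a median of -0.23 log2. Over 1 probe set for each of 18193 genes, 2.8% were higher, 2.05% lower and 19.4% at an unadjusted p under 0.05. The 2 WT tumours with the highest colonocyte means were 3 and 12, one on each side of the gap in Shh. With that mean as a covariate, an alternative added after the data were seen, Shh 1436869_at differed by -2.18 (adjusted p = 0.0695). Leukocyte markers were higher in KO tumours for 4 of 11 genes (the T cell genes Cd3e and Cd8a, the B cell gene Cd79a and the monocyte gene Cd14), with list means of 7.53 to 7.77 in KO and 6.27 to 7.14 in WT tumours. Goblet cell markers had list means of 9.33 to 9.83 in KO and 6.34 to 10.20 in WT tumours, with 8 of 10 differences above 0, a median of 1.04 log2, none past the test and 3 at an unadjusted p under 0.05. Their part in the ligand signals was not tested.

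Ptch1, the receptor that is also a target of the pathway, was not called on any of its 3 probe sets, although each mean was lower in KO. On 1428853_at, its probe set of highest mean, the signal was 11.21, 10.71, 10.25, 10.92 and 11.03 log2 in KO tumours 2, 6, 7, 9 and 11, against 11.50, 10.18, 11.48, 11.04 and 11.38 in WT tumours 1, 3, 8, 12 and 13. The lowest tumours of either group, KO tumour 7 and WT tumour 3, were nearly equal, and the other WT tumours were at or above 11.04. The difference was -0.31 ± 0.28 (SE; 95% interval -0.92 to 0.31; adjusted p = 0.628). On 1439663_at it was -0.47 ± 0.22 (95% interval -0.96 to 0.018; adjusted p = 0.293), and on 1450824_at -0.23 ± 0.20 (adjusted p = 0.628). The first 2 of these agreed in placing KO tumour 7 low, whereas 1450824_at had its lowest value in WT tumour 12 (5.62).

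Smo, the transducer, had 3 probe sets with differences of -0.23, -0.054 and -0.19 log2, none past the test (adjusted p = 0.700 to 0.908). The annotation gives 1427048_at and 1427049_s_at the same source sequence, so they are not independent. All 3 were highest in KO tumour 2. On 1427048_at the signal was 10.01, 8.87, 8.68, 8.83 and 8.92 in KO tumours 2, 6, 7, 9 and 11, against 9.45, 9.04, 9.29, 9.02 and 9.66 in WT tumours 1, 3, 8, 12 and 13. KO tumour 2 stood above all WT tumours while the other KO tumours were below all of them. KO tumour 2 also had the highest 3′ to 5′ difference of the Actb and Gapdh control probe sets, a measure of RNA quality. It was 1.17 log2 there and 0.71 to 1.14 on the other arrays. WT tumour 13, with the second highest control difference, had the second highest signal on 1427048_at. On 1427049_s_at WT tumour 12 (6.751) was above WT tumour 13 (6.747). WT tumours 1 and 8 had control differences of 0.92 and 0.97, and 1427048_at signals of 9.45 and 9.29. The part of RNA quality in these values was not tested.

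The Gli factors differed little. Gli1, the factor made in response to the pathway, was at 5.26, 5.54, 5.52, 5.74 and 5.43 log2 in KO tumours 2, 6, 7, 9 and 11, against 5.67, 6.34, 5.61, 5.66 and 5.39 in WT tumours 1, 3, 8, 12 and 13. Only WT tumour 3 reached 6, and the remaining tumours of both groups overlapped. The difference was -0.23 ± 0.18 (SE; 95% interval -0.62 to 0.16; adjusted p = 0.551). Gli2, the main activator, had 2 probe sets at 0.065 and 0.075 log2 (95% intervals -0.22 to 0.35 and -0.33 to 0.48), and both, which share a source sequence in the annotation, were lowest in WT tumour 3.

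Gli3, mainly a repressor, was separated between the groups on 1 of its 3 probe sets without passing the test. On 1450525_at it was at 6.05, 5.97, 6.02, 5.79 and 5.75 in KO tumours 2, 6, 7, 9 and 11, against 6.20, 6.21, 6.20, 6.12 and 6.44 in WT tumours 1, 3, 8, 12 and 13. All KO tumours lay below all WT tumours, by 0.073 log2 at the closest, and together with Shh 1436869_at this makes 2 of 19 probe sets with that separation, where it occurred in 3.39% of all probe sets. The difference was -0.32 ± 0.10 (SE; 95% interval -0.54 to -0.093; unadjusted p = 0.00998, adjusted p = 0.117, limma). The other Gli3 probe sets had differences of -0.11 (95% interval -0.55 to 0.33) and -0.057 (-0.41 to 0.29), with overlapping groups.

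Hhip, a cell-surface protein that binds the ligands and is induced by the pathway, had 4 probe sets with differences of 0.27, 0.098, 0.34 and 0.38 log2, none past the test (adjusted p = 0.416 to 0.871). On 1455277_at, that of highest mean, the signal was 8.38, 7.24, 7.00, 7.64 and 7.76 in KO tumours 2, 6, 7, 9 and 11, against 7.48, 6.51, 7.56, 7.66 and 6.82 in WT tumours 1, 3, 8, 12 and 13. The probe sets moved together from tumour to tumour. KO tumour 7 was the lowest KO tumour on all 4, WT tumours 3 and 13 were below the other WT tumours on all 4, and KO tumour 2 was the highest of all tumours on 3. The 95% interval of 1455277_at was -0.30 to 1.06. On that probe set the SD among tumours, 0.53 in KO and 0.51 in WT, was larger than the difference between the groups, as the plot of Hhip, Ptch1 and Smo by tumour shows.

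Hhip and Ptch1 are both induced by Hedgehog signalling, but their differences lay in opposite directions in the main fit. Hhip was above 0 on all 4 probe sets and Ptch1 below 0 on all 3, with none past the test. The direction of Hhip was not stable. With the number range as a covariate, Hhip 1437933_at and 1438083_at were -0.22 and -0.011, while its other probe sets stayed above 0. Taken on each array as Hhip 1455277_at minus Ptch1 1428853_at, a quantity chosen after the values were seen and given without a test, the difference was -2.83, -3.47, -3.25, -3.28 and -3.27 log2 in KO tumours 2, 6, 7, 9 and 11, against -4.02, -3.67, -3.92, -3.38 and -4.56 in WT tumours 1, 3, 8, 12 and 13. The groups overlapped only through KO tumour 6 and WT tumour 12. WT tumour 3, low for both genes on these probe sets, lay within the WT range in this quantity.

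**Figure D3:**
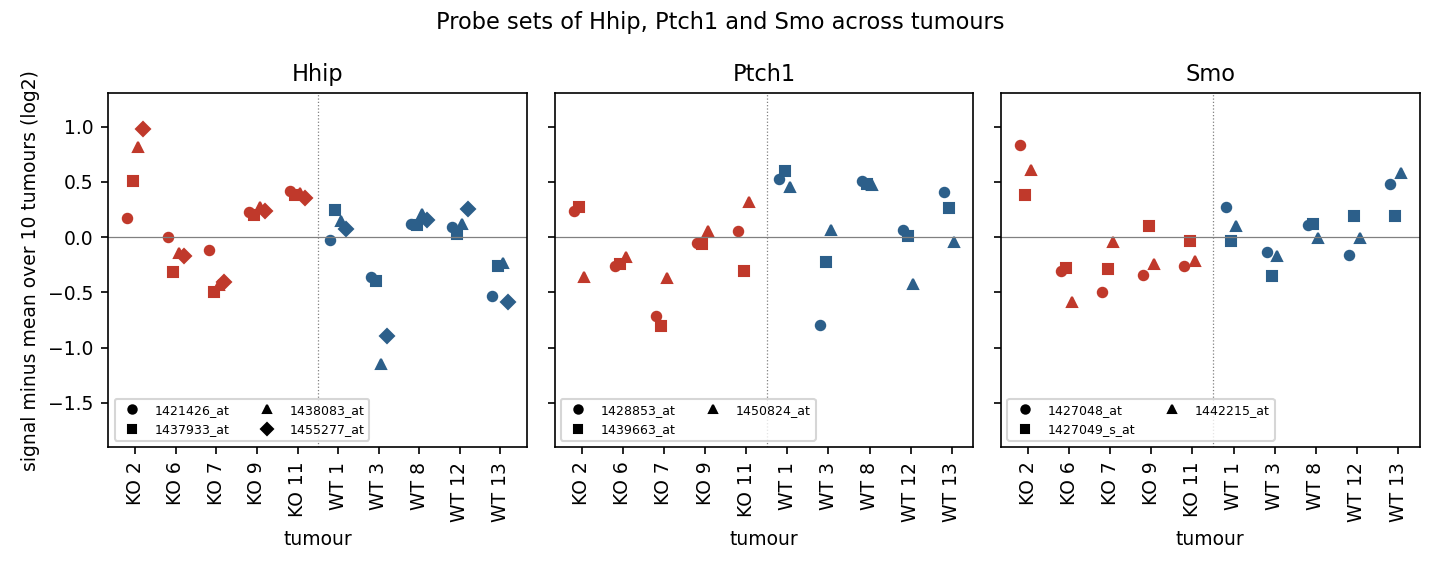
Log2 signal minus the mean over the 10 tumours for each probe set (marker shapes) of Hhip, Ptch1 and Smo, with KO tumours in red on the left and WT tumours in blue on the right of each panel. The 4 Hhip probe sets follow each other across tumours, Smo is highest in KO tumour 2 on all 3 probe sets, and the Ptch1 probe set 1450824_at departs from the other Ptch1 probe sets in KO tumour 2 and WT tumour 12.

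The stretches before the starts of these genes were read because Ptch1 and Hhip are the classic genes through which Gli factors report pathway activity, and Gli factors bind the letters GACCACCCA. RefSeq promoters of the assembly GRCm38.p6 were held for 6 of the 8 genes (not Shh and Gli1). In the 250 bases before the start, none of the 6 held GACCACCCA or its shorter core CCACCCA on either strand. Over all 32851 promoters, 0.225% held the longer and 8.11% the shorter run, so no match in 6 promoters is the usual case, and it says only that these letters are not in this window. The 2 stretches below are written 5′ to 3′ on the gene's strand, in lower case throughout since no motif was found, at chr13:63565736-63565985 (minus strand) for Ptch1 and chr8:80058009-80058258 (minus strand) for Hhip. Both are rich in G and C, at 78.4% and 76.0% of their bases.
Ptch1: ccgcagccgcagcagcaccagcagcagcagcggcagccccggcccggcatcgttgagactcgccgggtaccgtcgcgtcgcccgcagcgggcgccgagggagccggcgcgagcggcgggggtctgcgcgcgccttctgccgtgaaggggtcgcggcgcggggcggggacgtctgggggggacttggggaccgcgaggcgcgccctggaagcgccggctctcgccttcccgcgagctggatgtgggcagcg
Hhip: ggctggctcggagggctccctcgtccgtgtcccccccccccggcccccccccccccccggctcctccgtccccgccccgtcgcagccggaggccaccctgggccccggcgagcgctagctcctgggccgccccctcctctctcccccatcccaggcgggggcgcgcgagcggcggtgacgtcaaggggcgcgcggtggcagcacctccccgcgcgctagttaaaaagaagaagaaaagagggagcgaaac

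Other genes of the pathway were read from a list of 28, of which 26 had a probe set of their own. Of these, 2 were lower and 0 higher in KO tumours past the test, beside 2.05% lower and 2.8% higher over 1 probe set for each of 18193 genes. At an unadjusted p under 0.05 there were 8 of 26, beside 19.4% over all genes. The median difference of the list was -0.12 log2, with 20 of 26 below 0, and that of all genes was 0.0011. Gpr161, a receptor that holds the pathway off, was at 6.23, 5.38, 5.14, 5.88 and 5.61 log2 in KO tumours 2, 6, 7, 9 and 11, against 7.71, 6.35, 6.69, 6.70 and 7.88 in WT tumours 1, 3, 8, 12 and 13. The groups did not overlap, with KO below WT as in 3.39% of all probe sets. The level of Gpr161 was 2.66-fold lower in KO (difference -1.41 ± 0.34, SE; adjusted p = 0.0404, limma). Kif3a, a motor subunit needed to build the cilium, was at 8.27, 7.49, 7.95, 7.86 and 8.06 in KO tumours 2, 6, 7, 9 and 11, against 9.11, 8.60, 8.40, 8.54 and 9.02 in WT tumours 1, 3, 8, 12 and 13. The groups did not overlap here either, and the level was 1.74-fold lower in KO (difference -0.80 ± 0.19, SE; adjusted p = 0.0371, limma). Both calls were near the threshold: Gpr161 kept its call in 14 of 28 alternatives and Kif3a in 14 of 29. Gpr161 lost it without KO tumour 6, 7, 9 or 11 or WT tumour 1, 8 or 13 (adjusted p = 0.0596 to 0.0909), and Kif3a without KO tumour 6, 7, 9 or 11 or WT tumour 1 or 13 (adjusted p = 0.0640 to 0.0840). Over mouse means neither passed (adjusted p = 0.0730 for Gpr161 and 0.117 for Kif3a), nor did either with the fibroblast marker mean as a covariate (-1.17 and -0.69, adjusted p = 0.0511 and 0.0804). Without mouse 72, which leaves WT tumour 8 alone in its group, the differences shrank to -1.05 for Gpr161 and -0.47 for Kif3a.

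Gas1, a co-receptor for the ligands, had the largest difference of the list and is named after its values were seen. Its signal was 7.85, 3.52, 2.79, 4.24 and 6.89 log2 in KO tumours 2, 6, 7, 9 and 11, against 9.19, 8.46, 9.06, 6.07 and 8.38 in WT tumours 1, 3, 8, 12 and 13. KO tumours 2 and 11 overlapped WT tumour 12, and the KO range exceeded 5 log2. The difference of -3.22 ± 1.03 did not pass (SE; adjusted p = 0.116), except without KO tumour 2, where it was -3.93 (adjusted p = 0.0414). Both of the other ligand co-receptors, Boc and Cdon, had differences of 0.26. Disp2, also named after its values were seen and below the level filter, had a difference of 0.79 that did not pass (adjusted p = 0.0941, limma). All KO tumours lay above all WT tumours for Disp2. Among the 26 genes of the list, 1 had that separation and 2 the opposite, where these occurred in 3.51% and 3.39% of all probe sets. The third ligand Dhh (-0.27, adjusted p = 0.669) and Sufu, which holds Gli factors in the cytoplasm (-0.081, adjusted p = 0.820), did not pass. Fibroblast markers, whose cells carry Gas1 and receive the ligands, had list means of 8.59 to 9.55 in KO and 8.36 to 9.53 in WT tumours, with 9 of 12 differences below 0, a median of -0.32 log2, none past the test and 2 at an unadjusted p under 0.05. Smooth muscle markers, from another tissue that answers Hedgehog, had list means of 7.47 to 8.35 in KO and 7.39 to 8.32 in WT tumours, with none of 10 past the limma test and 1 at an unadjusted p under 0.05. Endothelial markers had list means of 6.37 to 7.44 in KO and 6.22 to 7.25 in WT tumours, with none of 8 past the test and none at an unadjusted p under 0.05. Enteric neuron and glia markers, 6 of them below the level filter, had list means of 5.24 to 5.61 in KO and 5.53 to 5.70 in WT tumours, with none of 8 past the test and 1 at an unadjusted p under 0.05. The part of these cells in the pathway values was not tested.

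**Figure D4:**
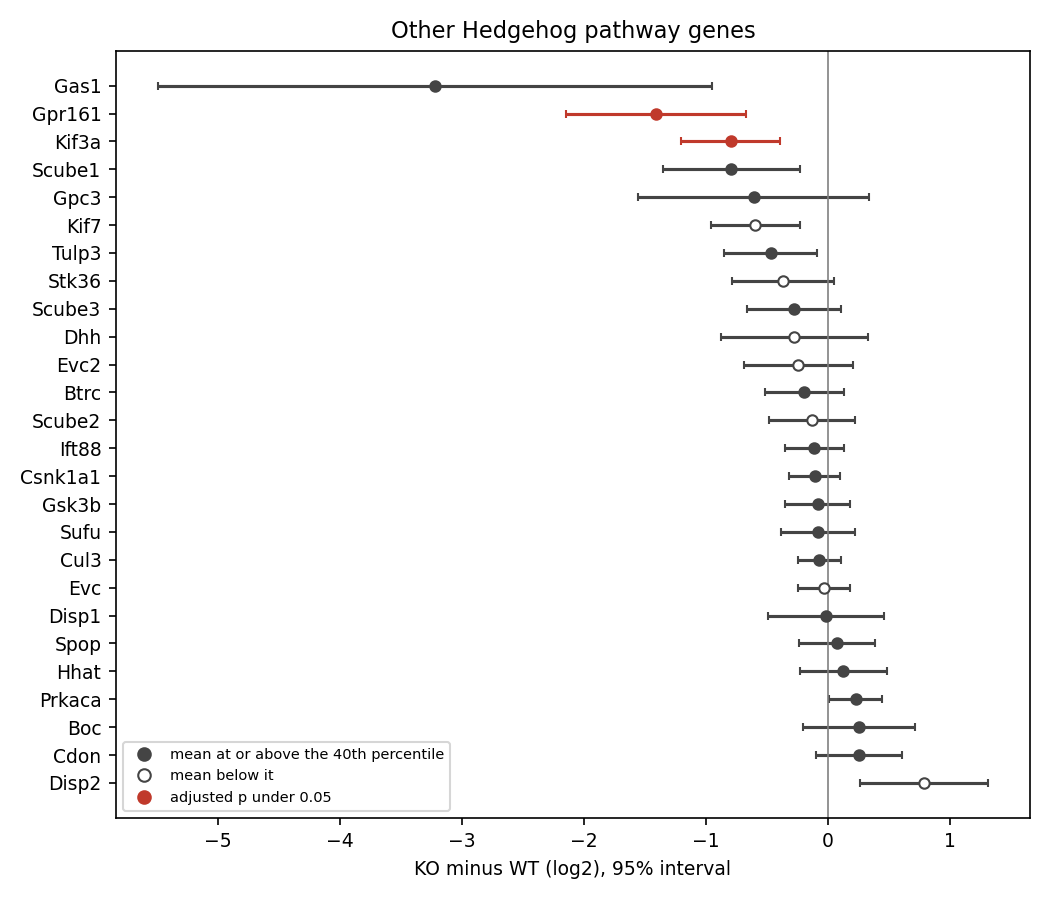
Difference between KO and WT tumours (log2, limma estimate with its 95% interval) for 26 other Hedgehog pathway genes, each by its probe set of highest mean, sorted from the most negative to the most positive. Gpr161 (-1.41) and Kif3a (-0.80), in red, have an adjusted p under 0.05, Gas1 has the widest interval (-5.50 to -0.95), and open points lie below the level filter.

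A list of 24 genes reported as responsive to Hedgehog, many of them in gut mesenchyme, had 23 with a probe set of their own. One, Hhex, a homeobox gene, was higher in KO tumours, 0 were lower, and 4 had an unadjusted p under 0.05 (over all genes, 2.8% were higher, 2.05% lower and 19.4% at an unadjusted p under 0.05). The median difference was -0.14 log2, with 15 below 0 and 8 above. Hhex was at 7.80, 7.26, 8.13, 8.00 and 7.92 log2 in KO tumours 2, 6, 7, 9 and 11, against 6.47, 6.71, 6.91, 6.97 and 7.14 in WT tumours 1, 3, 8, 12 and 13. All KO tumours lay above all WT tumours, as in 3.51% of all probe sets, and the level was 1.98-fold higher in KO (difference 0.98 ± 0.19, SE; adjusted p = 0.0149, limma), while over mouse means the call was lost (1.01, adjusted p = 0.0836). Some leukocyte lineages express Hhex, and leukocyte markers were higher in the same tumours, as given above; their part was not tested. Foxf1 and Foxl1, forkhead factors of the gut mesenchyme that Hedgehog maintains, had differences of -0.45 (95% interval -0.97 to 0.075) and -0.14 (-0.37 to 0.096). The mesenchymal ligand Bmp4 was at 0.063 (-0.62 to 0.75) and the secreted Wnt antagonist Sfrp1 at 0.037 (-0.74 to 0.81). Foxf1 and Bmp4 were, among WT tumours, lowest in tumour 3, as was the mean over the fibroblast markers. Foxl1 and Sfrp1 were not, with their lowest WT values in tumours 13 and 8.

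The genes whose signal followed each member most closely were sought by Pearson correlation over the 10 tumours, with the mean of each group removed first, among 12250 genes that passed the level filter. These are descriptions over tumours that share mice and tissue makeup. The highest of 12250 values over 10 tumours can be this high by selection alone. Whether any gene listed here follows its member beyond that was not tested. Ptch1 was followed by Ehbp1, Repin1 and Igsf10 (0.953 to 0.963), Smo by Dnmt3b, Trim35 and Flvcr1 (0.960 to 0.963), and Hhip by Vill, Mllt6 and Cops8 (0.931 to 0.959). Gli3 was followed by Grem1, a secreted BMP antagonist of colon stroma, at 0.954, then Gpr22 and Zbtb40 (0.926 to 0.928). Gli2 was followed by Cd86, Axl and Rbm20 (0.932 to 0.968), of which Cd86 marks antigen-presenting cells, and Gli1 by Fbxo24, Slc25a13 and Plcxd1 (0.924 to 0.957). Ihh was followed by Tbce, Zfp513 and Acot11 (0.911 to 0.957). For Shh the probe set of higher mean, 1427571_at, gave Drap1, Stk35 and Lmnb2 (0.922 to 0.940). The called one, 1436869_at, gave lower values, with Psma6 at 0.873, the distal homeobox gene Hoxd9 at 0.869 and Mfsd2b at 0.862.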

How the data were processed

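RNA of 10 dissected tumours, 1 array each, was amplified from 30 ng per the labels' protocols. The table deposited by the authors holds log2 values, 1 a probe set and array, from RMA, per the submitters' processing notes; its version is not given in the sources used here. Of 45101 probe sets, 64 were controls, 34945 had 1 gene symbol, 932 several and 9160 none; symbols were updated by Entrez identifier for 34741. The KO minus WT difference was fitted with limma 3.58.1 (R 4.3.3, statmod 1.5.0) to 45037 probe sets, with the mouse as a random block (consensus correlation 0.0553) and Benjamini-Hochberg adjustment, threshold 0.05. Lists used 1 probe set a gene, that of the highest mean. The fit was tested on simulated data. Named were all members, the targeted genes, called list genes, Dhh, Sufu, Foxf1, Foxl1, Bmp4 and Sfrp1, the 3 most alike genes of each member, and markers that passed. Outside this rule, Gas1, Disp2, Car1 and Slc26a3 were named after their values were seen. Boc and Cdon were named beside Gas1, and Epcam and Krt8 as examples. Members and lists were chosen with earlier results of these data known. Labels call pooled samples of a mouse 1 extract, yet list several arrays a mouse; arrays were taken as single tumours. Alternatives changed the block, unit, number range, filter, probe sets, scaling, eBayes, weights, covariates, tumours and mice; fits leaving out tumours or mice kept the correlation of the full fit.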

Additional observations from a re-analysis of the deposited data

Results flagged for a closer look

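In groups of 5 tumours, a value was noted where its gap to the next tumour exceeded 0.71 of the group's range (Dixon's 95% critical value). Of 56 groups examined, over 28 probe sets, 5 had such a tumour, and chance gives about 1 in 20. Smo 1427048_at was 10.01 log2 in KO tumour 2, against 8.68 to 8.92 in the other KO tumours. Gli3 1455154_at was 6.14 in KO tumour 2, against 5.51 to 5.69 in the other KO tumours. Sufu was 7.47 in KO tumour 2, against 6.91 to 7.03 in the other KO tumours. That tumour also had the highest fibroblast marker mean and the highest 3′ to 5′ difference of the Actb and Gapdh controls; their part was not tested. Gli3 1450525_at was 6.44 in WT tumour 13, against 6.12 to 6.21 in the other WT tumours. Foxf1 was 8.07 in WT tumour 3, against 8.94 to 9.21 in the other WT tumours.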

How the results depend on the processing

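No paired analysis was possible because no mouse gave both KO and WT tumours. None of the 18 member probe sets that did not pass was called under any of the 29 alternative fits in which it was fitted. Shh 1436869_at kept its sign in 26 fits and its call in 11, one of them without mouse 72 (-2.98, adjusted p = 0.0327), where WT tumour 8 alone is left in its group and is assumed to vary like the KO tumours; it was left out by the level filters and the choice of 1 probe set a gene, where 0 member probe sets were called. It was also lost, leaving 0, with the number range as a covariate, in either range alone, with the 3′ to 5′ difference, fibroblast mean or colonocyte mean as a covariate and without mouse 02 or 04. Leaving out single tumours gave 0 to 1 lower member probe sets, 0 to 3 other pathway genes, 622 to 1156 higher probe sets and 529 to 1196 lower ones; without KO tumour 6, 9 or 11 or WT tumour 8 or 13 the lower ones were 529 to 594, and without KO tumour 9 or 11 or WT tumour 13 the higher ones were 622 to 677.

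Over all probe sets the higher and lower counts were 1041 and 922, and became 360 and 482 over mouse means, 31 and 28 in the lower range, 593 and 405 above the 60th percentile, 509 and 359 with 1 probe set a gene, 681 and 544 with the 3′ to 5′ covariate, 657 and 532 with the fibroblast covariate, 661 and 464 without mouse 02 and 332 and 266 without mouse 04. Without mouse 72 there were 365 higher, and with the colonocyte covariate 1642 lower. Of the other pathway genes, 0 were called over mouse means, in the lower range, with the 3′ to 5′ or fibroblast covariate, and without mouse 02, 04 or 72; 1 was called with the range covariate, in the upper range and above the 60th percentile, and 4 with the colonocyte covariate. Of the reported targets, 0 were called over mouse means, in either range alone and without mouse 04 or 72, and 2 without mouse 02. The cause of these changes was not tested. Some of these fits also held fewer tumours or probe sets.

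Signs turned in 60 of 794 single values, none of them past the threshold. Over mouse means, Gli2 1459211_at was -0.011 and Hhip 1437933_at -0.045. With the range covariate, Shh 1427571_at was 0.040, Gli2 1459211_at -0.19, Hhip 1437933_at -0.22, Hhip 1438083_at -0.011, Bmp4 -0.32 and Sfrp1 -0.18. In the lower range, Shh 1427571_at was 0.019, Ihh -0.40, Gli2 1459211_at -0.14, Hhip 1437933_at, 1438083_at and 1455277_at -0.36, -0.15 and -0.12, and Bmp4 -0.042. In the upper range, Shh 1427571_at was 0.057, Smo 1427049_s_at 0.073, Gli2 1459211_at -0.20, Hhip 1437933_at -0.053, Bmp4 -0.57 and Sfrp1 -0.66. With array weights, Bmp4 was -0.0048 and Sfrp1 -0.036. With the 3′ to 5′ covariate, Smo 1427049_s_at was 0.071, Gli3 1455154_at 0.059, Gli3 1456067_at 0.0031 and Sufu 0.014, and with the fibroblast covariate 0.042, 0.036, 0.0027 and 0.016. With the colonocyte covariate, Gli2 1459211_at was -0.045, Bmp4 -0.18 and Sfrp1 -0.029. Without mouse 02, Gli2 1459211_at was -0.047, Bmp4 -0.20 and Sfrp1 -0.40. Without mouse 04, Shh 1427571_at was 0.00060 and Hhip 1437933_at -0.060. Without mouse 72, Gli2 1459211_at was -0.024, Gli3 1455154_at 0.037, Hhip 1437933_at and 1438083_at -0.063 and -0.035, Dhh 0.16 and Sufu 0.0065. Leaving out single tumours gave -0.089 to 0.024 for Shh 1427571_at, -0.16 to 0.014 for Smo 1427049_s_at, -0.039 to 0.12 for Gli2 1446086_s_at, -0.049 to 0.17 for Gli2 1459211_at, -0.16 to 0.032 for Gli3 1456067_at, -0.018 to 0.24 for Hhip 1437933_at, -0.15 to 0.23 for Bmp4 and -0.19 to 0.23 for Sfrp1. Signal over background was not assessed, which limits the low probe sets most.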
